A study of Homo sapiens with 9 samples.

Results

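The secreted cytokines described here are 10 genes of the 58381 in each count table: IL6, LIF, CSF1, CXCL8, CXCL1, CXCL2, CXCL3, CXCL5, CCL20 and CCL2. They were chosen as a list of cytokine and chemokine genes and found by stable Ensembl identifier. Counts were high enough to test 8 of the 10. CXCL5 and CCL2 were too low to test.

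The cells were EGI-1, an established line from a human cholangiocarcinoma, a cancer of the bile ducts, grown with 10% serum. Each of the 3 groups carried a doxycycline-inducible short hairpin RNA and had 3 libraries: GFPsh, a control hairpin, and FOSL1sh3 and FOSL1sh10, hairpins against FOSL1. Every group, controls included, received 2 ug/ml doxycycline for 4 days and was harvested 24 h after seeding. The labels do not say whether a group was 1 clone or a pool of cells, nor whether replicates were separate cultures. The p-values therefore measure a spread between libraries that may be technical.

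Cytokines are small secreted proteins that act on neighbouring cells through surface receptors. In epithelial cells, IL6 and the neutrophil-attracting CXC chemokines are typically switched on by NF-kB and AP-1 transcription factors at promoters close to the start site, and their RNAs are short-lived because of AU-rich elements in the 3' untranslated region. FOSL1 encodes FRA-1, a subunit of AP-1, and the comparisons asked how these transcripts differed when FOSL1 was lowered by either hairpin.

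The promoter sequences of the chemokines are shown because the same short pattern stood in each of them. Of the 10 genes, 7 had a promoter in the RefSeq table (GRCh38.p14): IL6, CXCL8, CXCL1, CXCL2, CXCL3, CXCL5 and CCL20. CSF1, LIF and CCL2 had none there. The pattern GGNNTTTCC, a short form of the NF-kB site, was searched on both strands from 250 bases before to 50 bases after the start site, and was present in 7 of the 7. The share among 13958 windows of tested genes was 6.81%. The pattern was chosen with these promoters and their known sites in view, so the count is a description. The longer NF-kB consensus, which overlaps the short pattern, was found in 6 of the 7 (13.3% of the windows of tested genes). Each line gives 29 bases around the first match, 5′ to 3′ on the strand of the gene, with the match in capitals.
IL6: atcaaatgtgGGATTTTCCcatgagtctc
CXCL8: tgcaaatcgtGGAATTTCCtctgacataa
CXCL1: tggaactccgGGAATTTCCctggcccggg
CXCL2: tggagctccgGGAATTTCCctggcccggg
CXCL3: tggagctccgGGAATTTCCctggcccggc
CXCL5: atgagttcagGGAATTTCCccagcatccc
CCL20: tgatcaatggGGAAAACCCcatgtggcaa
The match began 72 bases before the start site in IL6, 91 before it in CXCL8, 90 before it in CXCL5 and 79 before it in CCL20, where it lay on the opposite strand. In CXCL1 and CXCL3 it began at 78 bases before the start and in CXCL2 at 77. Those 3 genes held another match, 53 bases before the start. Start sites here are those of RefSeq, and the gene spans given below begin further upstream for some genes. The printed sites of IL6, CXCL2, CXCL3, CXCL5 and CCL20 lay inside those spans, and those of CXCL8 and CXCL1 lay before them. Of the 150 bases before the RefSeq start, 0 (CXCL1) to 118 (CXCL3) were annotated as exonic. The windows of CXCL1 and CXCL3 were identical at 82.5% of aligned positions, those of CXCL1 and CXCL2 at 72.1%, and those of CXCL1 and CXCL8 at 42.6%.

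The AP-1 pattern TGANTCA, the site that FRA-1 containing dimers bind, was present in 1 of the 7 promoter windows, that of CXCL8, where it began 137 bases before the start site. It was present in 5.39% of the windows of tested genes. A promoter without these letters in this window says nothing about binding elsewhere. The CXCL8 stretch from 150 to 64 bases before the start (chr4:73740419-73740505, plus strand) holds both patterns, in capitals, AP-1 first.
CXCL8: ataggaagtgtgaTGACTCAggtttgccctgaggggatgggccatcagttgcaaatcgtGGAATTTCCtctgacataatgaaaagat
The IL6 stretch from 150 to 54 bases before the RefSeq start (chr7:22727050-22727146, plus strand) holds the NF-kB pattern alone.
IL6: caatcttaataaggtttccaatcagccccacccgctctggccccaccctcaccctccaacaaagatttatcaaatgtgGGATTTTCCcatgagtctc
The CXCL1 stretch of 150 bases (chr4:73869243-73869392, plus strand) shows the paired NF-kB matches that CXCL2 and CXCL3 share.
CXCL1: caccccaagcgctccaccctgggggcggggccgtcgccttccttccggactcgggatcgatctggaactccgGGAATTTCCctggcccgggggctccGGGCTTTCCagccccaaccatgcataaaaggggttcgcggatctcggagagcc

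At the other end of the transcripts, AU-rich sequence was common. At least 5 ATTTA pentamers per kilobase of 3' untranslated region were found in 7 of the 10 genes, against 8.21% of 11137 tested coding genes. This pentamer and the nonamer below were searched because AU-rich elements are known in such RNAs, so the counts are a description. CXCL2 had 10 pentamers in 721 bases and IL6 had 6 in 429 bases, while LIF had 7 in 3204 bases, CSF1 had 4 in 2154 and CCL2 had 1 in 473. The nonamer TTATTTATT, bound by decay factors such as ZFP36, was found in 5 of the 10 (CXCL1, CXCL2, CXCL3, CXCL8 and LIF) and in 9.31% of tested coding genes. The first nonamer of each is shown in capitals with its neighbouring bases.
CXCL1: agtcttctatTTATTTATTtattcattag
CXCL2: agtcttctatTTATTTATTtatttattta
CXCL3: atgtcagttgTTATTTATTcaaattatct
CXCL8: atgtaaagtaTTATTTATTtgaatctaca
LIF: ctccgggcccTTATTTATTatttaaacat
CXCL1 and CXCL2 carried it in the same run of bases, 148 bases into the region.

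The libraries held 6893026 to 10604251 counts, and the groups overlapped in depth. Levels are counts scaled by TMM to a common library size (CPM). A count of 0 allows up to 3 counts, or 0.306 to 0.433 CPM on this scale depending on the library. A gene was called at an adjusted p under 0.05 in edgeR's quasi-likelihood test, with Benjamini-Hochberg adjustment over the 12814 genes tested. The targeted gene fell with both hairpins: FOSL1 was at 182.1 to 303 CPM in the GFPsh libraries, 44.9 to 72.3 CPM with FOSL1sh3 and 57.1 to 70.9 CPM with FOSL1sh10. On the log2 scale FOSL1 changed by -1.98 with FOSL1sh3 (adjusted p = 1.2e-05) and by -1.94 with FOSL1sh10 (adjusted p = 1.03e-05), and the difference between the hairpins was 0.05 (adjusted p = 0.9). All 7 biliary and epithelial markers were measured, with a summed level of 10900 to 13600 CPM over the 9 libraries. Of all calls, 48.0% were higher with FOSL1sh3 and 59.3% with FOSL1sh10, and 54.9% were higher in FOSL1sh10 against FOSL1sh3. With library totals alone these shares were 34.0%, 77.5% and 82.4%, and the median of all genes shifted to -0.06, 0.11 and 0.17.

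With FOSL1sh10, 6 of the 8 tested cytokine genes rose against the control hairpin: IL6, CSF1, CXCL1, CXCL2, CXCL3 and CCL20. None fell. Over all genes tested, 3.13% were called higher and 2.15% lower in this comparison. With FOSL1sh3, 0 of the 8 rose and 1, CXCL8, fell, where 5.21% of all genes were called higher and 5.65% lower. The hairpins were also compared directly, and 6 of the 8 were higher in FOSL1sh10 than in FOSL1sh3 (7.00% of all genes): IL6, CSF1, CXCL8, CXCL1, CXCL2 and CXCL3. None was lower, against 5.74% of all genes. The median log2 fold change of the 8 was 0.03 with FOSL1sh3, 1.67 with FOSL1sh10 and 2.03 between the hairpins, beside 0.01, 0.00 and 0.00 over all genes. Both comparisons with GFPsh use the same 3 control libraries. In bulk RNA, fewer cells making a transcript and less of it per cell cannot be told apart.

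**Figure D1:**
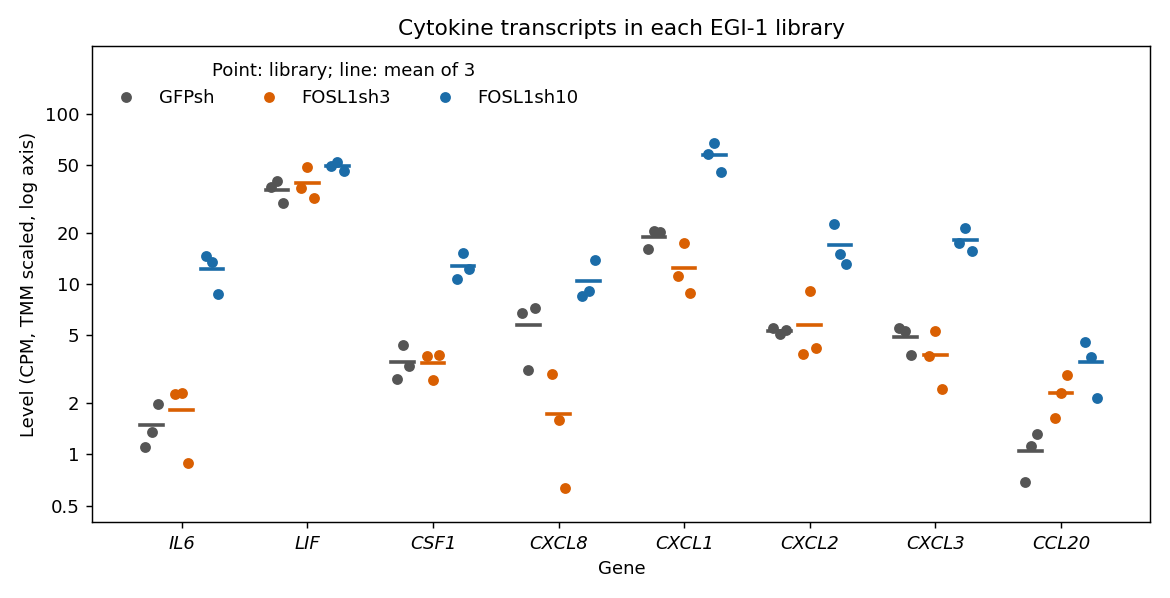
Level of the 8 tested cytokine genes in each library (points) with the mean of 3 (lines), in TMM-scaled CPM on a log axis. All 3 FOSL1sh10 libraries lie above all 3 GFPsh libraries for each gene, for IL6 at 8.76 to 14.6 against 1.10 to 1.98 CPM. CXCL8 lies lower with FOSL1sh3 than in the controls.

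Every one of the 8 genes had all 3 FOSL1sh10 libraries above all 3 GFPsh libraries, a separation that 14.3% of all tested genes showed in that direction. Against FOSL1sh3, 6 of the 8 were separated upward (15.9% of all genes); LIF and CCL20 overlapped. Between FOSL1sh3 and GFPsh only CCL20 was separated upward (14.7% of all genes) and only CXCL8 downward (14.5%). Each of the 8 reached the expression filter in at least 4 libraries outside FOSL1sh10, so none was tested through FOSL1sh10 alone.

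IL6 encodes interleukin 6, which signals through IL6R and the shared subunit IL6ST to STAT3. The gene lies at chr7:22725884-22732002 on the plus strand (hg38). Its counts were 8, 12 and 18 in the GFPsh libraries, 22, 16 and 7 with FOSL1sh3, and 102, 119 and 86 with FOSL1sh10. In CPM these were 1.10, 1.35 and 1.98, then 2.26, 2.31 and 0.891, then 14.6, 13.5 and 8.76. The FOSL1sh10 libraries stood apart from the other 6, whose ranges overlapped. The mean rose from 1.48 ± 0.454 to 12.3 ± 3.07 CPM (SD, n = 3 each), a log2 fold change of 3.01 (SE 0.348, edgeR adjusted p = 3.24e-05). By size of change IL6 ranked at 9 of 12814 from the top. With FOSL1sh3 the mean was 1.82 ± 0.804 CPM (SD, n = 3). That log2 difference was 0.28 with a 95% interval from -0.58 to 1.15, less than the spread between replicates. FOSL1sh10 exceeded FOSL1sh3 by 2.73 (SE 0.340, edgeR adjusted p = 5.79e-05). Exons of AC073072.1 and STEAP1B overlap IL6 on the opposite strand, and the counts carry no strand. Reads there cannot be assigned by strand, so the IL6 count in the overlap is uncertain, too high or too low.

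LIF, leukemia inhibitory factor, is an IL6-family cytokine that acts through LIFR with IL6ST. It lies at chr22:30240447-30246851 on the minus strand. Its libraries held 37.0, 40.5 and 29.8 CPM in GFPsh, 36.6, 48.8 and 32.2 CPM with FOSL1sh3, and 49.1, 51.8 and 46.4 CPM with FOSL1sh10. FOSL1sh10 lay just above all controls, and the FOSL1sh3 libraries overlapped both other groups. LIF did not pass the test in any comparison. The log2 differences were 0.46 for FOSL1sh10 against GFPsh (95% interval 0.11 to 0.81, edgeR adjusted p = 0.127), 0.13 for FOSL1sh3 (-0.22 to 0.48, adjusted p = 0.664) and 0.33 between the hairpins (-0.02 to 0.68, adjusted p = 0.21). Exons of LIF-AS1 and AC004264.1 overlap it on the opposite strand.

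CSF1, macrophage colony-stimulating factor, supports monocytes and macrophages through CSF1R. It lies at chr1:109910242-109930992 on the plus strand. Counts were 20, 39 and 30 in GFPsh, 37, 19 and 30 with FOSL1sh3, and 75, 134 and 121 with FOSL1sh10. The first 2 groups covered the same range, and every FOSL1sh10 library lay above both. Its mean went from 3.49 ± 0.830 CPM in GFPsh and 3.45 ± 0.616 CPM with FOSL1sh3 to 12.7 ± 2.25 CPM with FOSL1sh10 (SD, n = 3 each). FOSL1sh10 exceeded GFPsh by 1.86 (SE 0.258, edgeR adjusted p = 0.000208) and FOSL1sh3 by 1.87 (SE 0.260, adjusted p = 0.000179) on the log2 scale. Against the control the FOSL1sh3 difference was -0.01, with a 95% interval from -0.61 to 0.59.

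**Figure D2:**
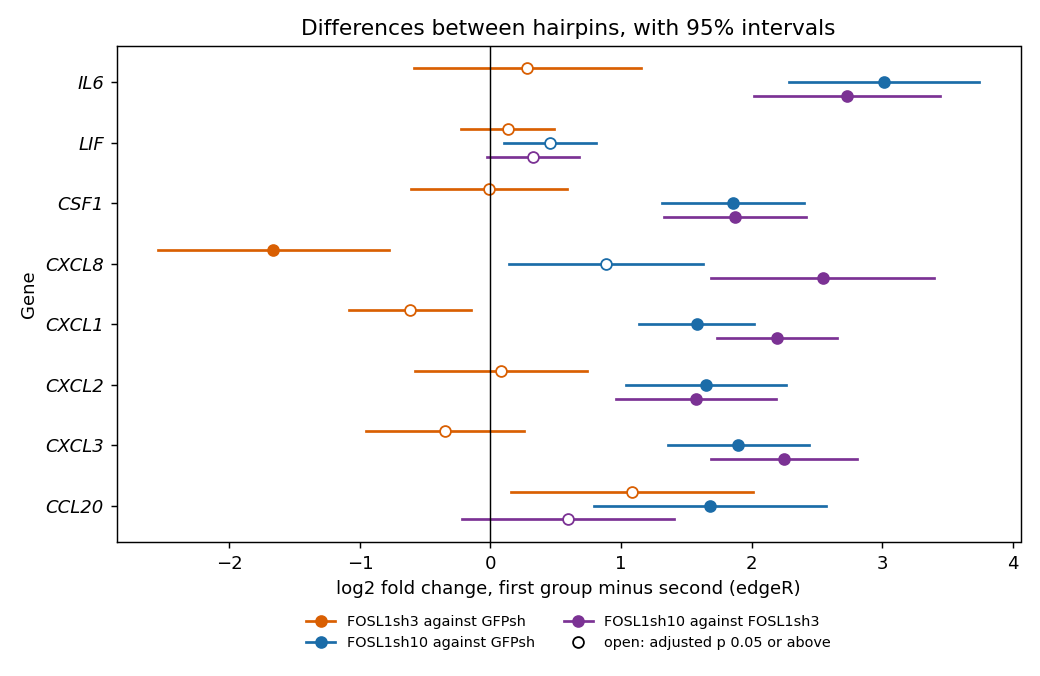
log2 fold change of each tested cytokine gene (points) with its 95% interval (lines) in the 3 comparisons, filled where the adjusted p was under 0.05. IL6, CSF1, CXCL1, CXCL2 and CXCL3 sit between 1.58 and 3.01 for FOSL1sh10 against GFPsh, while their intervals for FOSL1sh3 against GFPsh, other than that of CXCL1, include 0.

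CXCL8 (interleukin 8) attracts neutrophils through CXCR1 and CXCR2. It lies at chr4:73740506-73743716 on the plus strand and was the 1 gene of the 10 that fell with FOSL1sh3. Counts were 49, 28 and 66 in GFPsh, 29, 11 and 5 with FOSL1sh3, and 60, 80 and 136 with FOSL1sh10. The 3 groups did not overlap in CPM: FOSL1sh3 held 2.98, 1.59 and 0.636 CPM, GFPsh 6.76, 3.15 and 7.27 CPM, and FOSL1sh10 8.56, 9.05 and 13.9 CPM. With FOSL1sh3 it stood at 31.6% of the control (log2 fold change -1.66, SE 0.423, edgeR adjusted p = 0.0185). That call ended without GFPsh replicate 1 or 3 or FOSL1sh3 replicate 3 (adjusted p from 0.0695 to 0.0791). FOSL1sh10 differed from GFPsh by 0.88 (95% interval 0.14 to 1.62, adjusted p = 0.167). Between the hairpins the difference was 2.55 (SE 0.406, edgeR adjusted p = 0.000636), which placed CXCL8 at rank 19 of 12814.

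CXCL1, CXCL2 and CXCL3 are close relatives of one another that act on CXCR2. CXCL1 (chr4:73869393-73871242, plus strand) held 117, 183 and 183 counts in GFPsh, 108, 121 and 70 with FOSL1sh3, and 407, 592 and 448 with FOSL1sh10. It averaged 18.97 ± 2.46, 12.5 ± 4.44 and 56.9 ± 10.7 CPM in the 3 groups (SD, n = 3 each). FOSL1sh10 libraries were far above the rest, and the FOSL1sh3 libraries reached from below the controls into their range. The log2 fold changes were 1.58 (SE 0.211, edgeR adjusted p = 0.000145) with FOSL1sh10 and -0.62 (SE 0.223, adjusted p = 0.0825) with FOSL1sh3. Between the hairpins it was 2.20 (SE 0.219, edgeR adjusted p = 5.85e-06), the smallest p of the 10 genes there.

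CXCL2 (chr4:74097035-74099293, minus strand) held 40, 45 and 49 counts in GFPsh, 38, 63 and 33 with FOSL1sh3, and 158, 132 and 129 with FOSL1sh10. The controls were tightly grouped, FOSL1sh3 spread to both sides of them, and FOSL1sh10 lay above all 6. It averaged 5.33 ± 0.235, 5.73 ± 2.91 and 16.9 ± 4.99 CPM (SD, n = 3 each). FOSL1sh10 exceeded GFPsh by 1.65 (SE 0.292, edgeR adjusted p = 0.00182) and FOSL1sh3 by 1.57 (SE 0.292, adjusted p = 0.00214) on the log2 scale. FOSL1sh3 differed from GFPsh by 0.08, with a 95% interval from -0.58 to 0.74.

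CXCL3 (chr4:74036589-74038807, minus strand) held 40, 47 and 35 counts in GFPsh, 37, 37 and 19 with FOSL1sh3, and 123, 189 and 154 with FOSL1sh10. FOSL1sh10 again lay above all 6 other libraries, which overlapped. It averaged 4.89 ± 0.90, 3.85 ± 1.46 and 18.2 ± 2.90 CPM (SD, n = 3 each). The log2 fold change was 1.90 (SE 0.257, edgeR adjusted p = 0.00016) with FOSL1sh10 and 2.25 (SE 0.265, adjusted p = 3.07e-05) between the hairpins. FOSL1sh3 differed from GFPsh by -0.35, with a 95% interval from -0.95 to 0.25.

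These 3 transcripts share sequence, and reads that map to several places were not counted by the command in the file headers. Of the 50-base windows of the transcript, 5.73% of CXCL1, 9.24% of CXCL2 and 5.26% of CXCL3 also stood in one of the others, so their counts are uncertain. In the last 500 bases, nearest to where tags are counted, the shares were 10.2% for CXCL1, 10.2% for CXCL2 and 0% for CXCL3. None of the windows of IL6, LIF, CSF1, CXCL8, CCL20 or CCL2 was shared with another gene.

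CXCL5, another CXCR2 ligand (chr4:73995642-73998779, minus strand), was not tested. It had 0, 2 and 1 counts in GFPsh, 1, 0 and 1 with FOSL1sh3, and 1, 11 and 1 with FOSL1sh10. Of its 18 counts, 11 were in FOSL1sh10 replicate 2, at 1.24 CPM with an exact 95% Poisson interval from 0.621 to 2.23 that covers counting error only, while the other libraries with that hairpin had 1 count each.

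The 5 CXC genes lie in 1 cluster on chromosome 4, with CXCL1, CXCL5, CXCL3 and CXCL2 starting 128.9, 258.3, 298.3 and 358.8 kb from the start of CXCL8. The 4 that could be tested were each higher in FOSL1sh10 than in FOSL1sh3, by 1.57 to 2.55 on the log2 scale. The other genes of the cluster were too low to test. CXCL6 and PF4V1 had 0 counts in all 9 libraries. PF4 had 18 counts in GFPsh, 7 with FOSL1sh3 and 1 with FOSL1sh10, and PPBP had 10, 19 and 32.

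**Figure D3:**
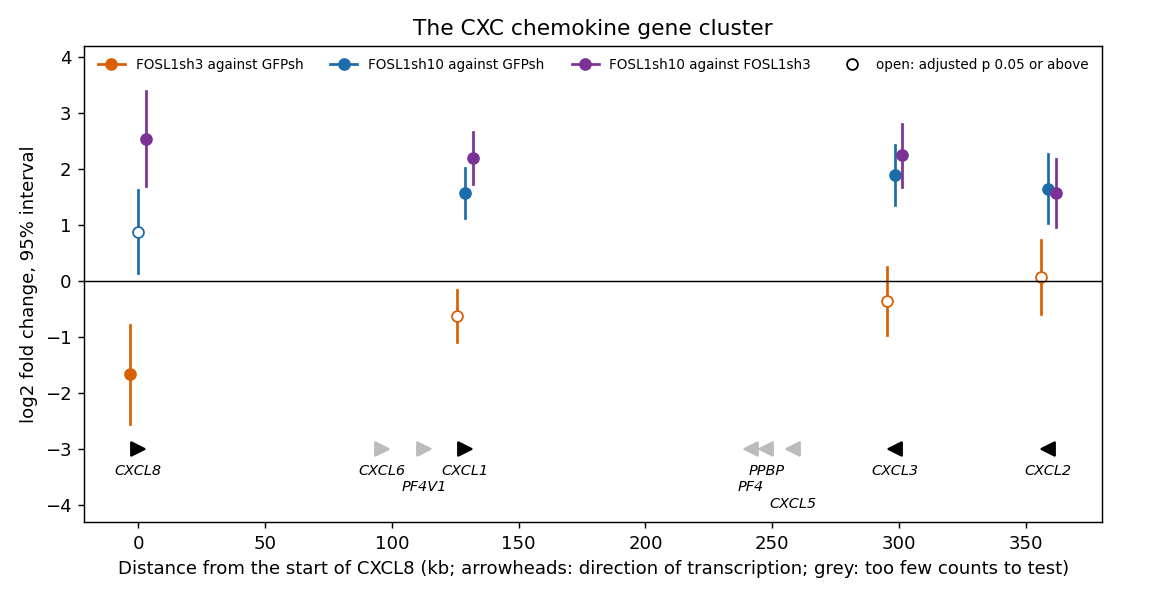
log2 fold change with 95% interval (vertical axis) of the tested CXC genes against distance from the start of CXCL8 in kb (horizontal axis), filled where the adjusted p was under 0.05; grey arrowheads mark genes with too few counts to test. FOSL1sh10 against FOSL1sh3 is above 0 at each of the 4 genes (1.57 to 2.55), and FOSL1sh3 against GFPsh runs from -1.66 at CXCL8 to 0.08 at CXCL2.

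CCL20 attracts CCR6-bearing lymphocytes and dendritic cells. It lies at chr2:227805739-227817564 on the plus strand. Counts were low: 5, 10 and 12 in GFPsh, 16, 16 and 23 with FOSL1sh3, and 32, 33 and 21 with FOSL1sh10. Both hairpins lay above all controls and overlapped each other. The mean was 1.05 ± 0.324 CPM in GFPsh, 2.29 ± 0.643 with FOSL1sh3 and 3.48 ± 1.23 with FOSL1sh10 (SD, n = 3 each). The rise with FOSL1sh10 was 1.68 (SE 0.423, edgeR adjusted p = 0.0242), and it ended without any 1 of the GFPsh libraries or without FOSL1sh10 replicate 1 or 2 (adjusted p from 0.0555 to 0.112). With FOSL1sh3 the difference was 1.09 (95% interval 0.16 to 2.01, adjusted p = 0.121). The hairpins differed by 0.59 (95% interval -0.22 to 1.40, adjusted p = 0.333), so the data do not separate them for CCL20. CCL2, which attracts monocytes through CCR2 (chr17:34255218-34257203, plus strand), had 0 counts in all 9 libraries, which allows up to 0.306 to 0.433 CPM per library.

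Across the 10 genes, levels were ordered per kilobase of exon. In GFPsh the highest means were those of CXCL1 (14.6 CPM per kb) and LIF (9.01), followed by CXCL2 (3.55), CXCL8 (2.52) and CXCL3 (2.20). IL6 (0.715), CCL20 (0.656) and CSF1 (0.643) lay close together, CXCL5 was at 0.044 and CCL2 at 0. With FOSL1sh10, CXCL1 was again highest at 43.9 CPM per kb, then LIF at 12.4, CXCL2 at 11.2 and CXCL3 at 8.20, and IL6 was at 5.92, above CXCL8 at 4.61. Per kilobase, differences between IL6, CCL20 and CSF1 in GFPsh were smaller than the SD of their values (30.7% of the mean for IL6). Libraries of this kind count tags near the 3' end, so length scaling lowers the long transcripts of CSF1 and LIF relative to the short ones, and the order depends on it. In CPM not divided by length, LIF (35.8) stood above CXCL1 (18.97) in GFPsh. On that scale CSF1 in GFPsh (2.76 to 4.39 CPM) lay above IL6 (1.10 to 1.98) and CCL20 (0.690 to 1.32) with no overlap.

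**Figure D4:**
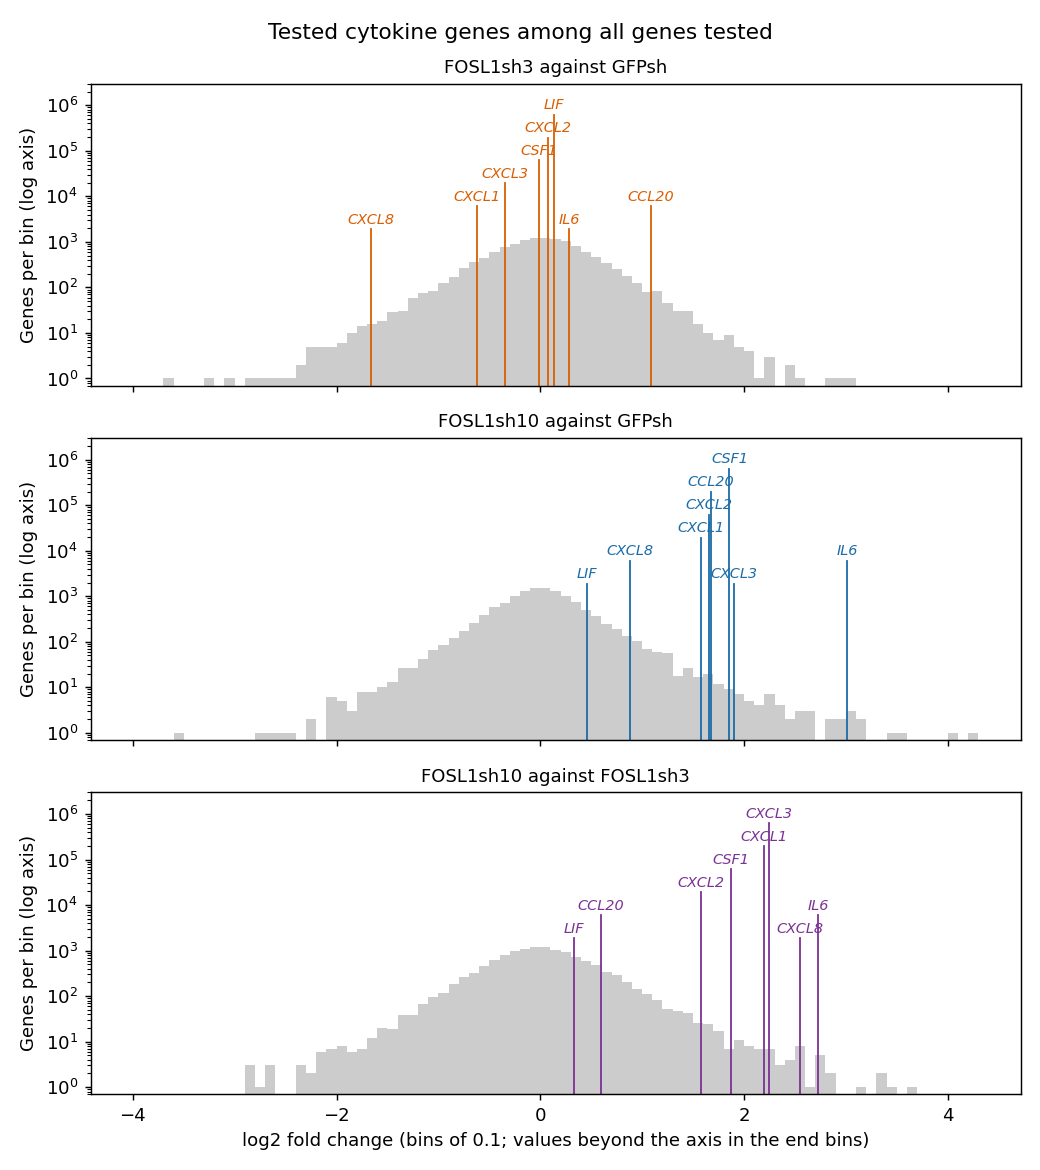
Distribution of log2 fold changes over all 12814 genes tested (grey bars, genes per bin of 0.1, log axis) with the 8 tested cytokine genes as labelled lines, 1 panel per comparison. With FOSL1sh10 the genes lie at 0.46 to 3.01, all right of the median of 0.00, and with FOSL1sh3 they lie on both sides of it, from -1.66 to 1.09.

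Of 10 receptors of these cytokines, 2 had enough counts to test. LIFR, CCR2, CCR6 and the scavenging receptor ACKR1 had 0 counts in all 9 libraries, CXCR1 and CXCR2 had 3 counts each in all, and CSF1R and ACKR2 had 43 and 39. IL6R and IL6ST were the 2 tested, and neither was called. IL6R was at 119.2 ± 12.8 CPM in GFPsh, 87.7 ± 17.1 with FOSL1sh3 and 93.4 ± 9.15 with FOSL1sh10 (SD, n = 3 each). Its log2 differences from GFPsh were -0.44 (edgeR adjusted p = 0.0748) and -0.35 (0.214). IL6ST was at 4.02 ± 0.703, 2.42 ± 0.160 and 3.19 ± 1.12 CPM, with differences of -0.73 (adjusted p = 0.176) and -0.34 (0.636). Of the 9 tested genes that carry or damp the IL6 and LIF signal, 0 were called with FOSL1sh10 and 1 with FOSL1sh3, the phosphatase gene PTPN11 at -0.74 (SE 0.222, adjusted p = 0.0382), a call that ended under 6 of the 16 alternatives (0.0515 to 0.125). PTPN11 was higher in FOSL1sh10 than in FOSL1sh3 (1.10), and the kinase PIM1 was lower (-1.17).

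Other secreted factors were called in part. Of 22 other cytokines tested, 9 rose and 0 fell with FOSL1sh10 (median log2 fold change 0.69), where 3.13% of all genes were called higher and 2.15% lower. With FOSL1sh3, 2 rose and 1 fell (median 0.14; 5.21% and 5.65% of all genes), and the 1 of 22 is near the share of all genes. In FOSL1sh10 against FOSL1sh3, 11 were higher and 2 lower (median 0.77; 7.00% and 5.74% of all genes). The 9 became 8 with a minimum count of 20 or DESeq2, and 7 without FOSL1sh10 replicate 2 or 3. The check that genes reached the expression filter outside FOSL1sh10 covered only the 10 cytokine genes. Some of the 9 and of the 11 may therefore have been tested through FOSL1sh10 alone. CSF2, granulocyte-macrophage colony-stimulating factor, held 49.2, 60.2 and 53.8 CPM in GFPsh, 34.1, 45.2 and 35.8 with FOSL1sh3, and 134.6, 121.8 and 97.9 with FOSL1sh10. Its log2 fold changes were 1.12 (SE 0.156, edgeR adjusted p = 0.000214) and -0.51 (SE 0.159, adjusted p = 0.0462), so it rose with FOSL1sh10 and fell with FOSL1sh3. The fall ended under 9 of the 16 alternatives, 8 of which left out 1 library (adjusted p from 0.0501 to 0.151). IL1A, an inducer of IL6 and CXCL8, rose by 1.55 with FOSL1sh10 (SE 0.264, edgeR adjusted p = 0.00134) and differed by -0.13 with FOSL1sh3 (adjusted p = 0.821). IL32 rose with both hairpins, by 1.26 with FOSL1sh10 and by 0.57 with FOSL1sh3, the latter ending under 7 alternatives. VEGFA, the endothelial growth factor, rose by 0.94 with FOSL1sh10. Its difference of 0.52 with FOSL1sh3 was just short of a call (edgeR adjusted p = 0.0546). The hairpins differed by 0.42 for VEGFA (adjusted p = 0.106). CTF1, named after its value was seen, was the gene besides IL32 called higher with FOSL1sh3 (1.95). CTF1 and CLCF1, both of the IL6 family, were the 2 that were lower in FOSL1sh10 than in FOSL1sh3 (-1.33 and -0.81), and both calls ended without FOSL1sh10 replicate 2, that of CLCF1 also without FOSL1sh3 replicate 1. Of 23 other chemokines only 4 were tested. CCL28, an epithelial chemokine, rose with FOSL1sh10 (0.78, edgeR adjusted p = 0.0206), a call that ended without any 1 GFPsh library or FOSL1sh10 replicate 2 or 3. It was also higher in FOSL1sh10 than in FOSL1sh3 (1.39). CXCL14 was lower in FOSL1sh10 than in FOSL1sh3 (-1.61, adjusted p = 0.0255), which ended without FOSL1sh3 replicate 3 or FOSL1sh10 replicate 1 or 2.

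Among 18 tested NF-kB subunits and feedback genes, 7 rose and 0 fell with FOSL1sh10 (3.13% and 2.15% of all genes), with a median of 0.51. The 7 became 1 without GFPsh replicate 1, 5 with the replicate block and 9 with library totals alone. Whether each of the 7 reached the expression filter outside FOSL1sh10 was not checked, and TRAF1 had a result under only 14 of the 16 alternatives. RELB, a subunit of the alternative NF-kB pathway, rose from 15.9 ± 0.221 to 33.9 ± 4.31 CPM (SD, n = 3 each), a log2 fold change of 1.09 (SE 0.165, edgeR adjusted p = 0.000451). NFKB2 rose by 0.70, BCL3 by 0.78 and the inhibitor gene NFKBIA by 0.58 (adjusted p from 0.0161 to 0.0245). These 3 calls each ended without 4 or 5 of the libraries, left out 1 at a time, as did those of BIRC3 and TNFAIP3 without 5 and that of TRAF1 without 7. With FOSL1sh3, NFKB1, IKBKB and TNFAIP2 rose and the feedback gene TNFAIP3 fell (median of the list 0.08; 5.21% of all genes higher, 5.65% lower), genes named because so few were called. All but the TNFAIP2 call ended without 3 to 5 of the libraries, left out 1 at a time. Between the hairpins 7 were higher in FOSL1sh10 and 1, TNFAIP2, was lower (7.00% and 5.74% of all genes). The 7 became 3 without FOSL1sh10 replicate 2. They included NFKBIE and NFKBIB but not BCL3 and NFKBIA (0.35 and 0.32, edgeR adjusted p = 0.235 and 0.154). RELB, BCL3 and NFKBIA also had all FOSL1sh3 libraries above all controls, as did 14.7% of all genes. Their FOSL1sh3 differences from GFPsh were 0.37, 0.43 and 0.255, and none was called (adjusted p from 0.16 to 0.278). NFKB2 differed by 0.03 there and overlapped. Of 11 other tested factors known at cytokine promoters, 4 rose and 1, FOSL1 itself, fell with FOSL1sh3 (5.21% and 5.65% of all genes). With FOSL1sh10, 2 of them rose and 1, again FOSL1, fell (3.13% and 2.15% of all genes). The 2 became 2 to 4 when 1 library was left out and 3 to 5 under the other alternatives. ATF3 was just short of a call with FOSL1sh10 (0.75, edgeR adjusted p = 0.0502) and differed by -0.59 with FOSL1sh3 (adjusted p = 0.1). CEBPB rose with both hairpins (0.67 and 0.87) and IRF1 with FOSL1sh10 (0.75). The other risers with FOSL1sh3, named after their values were seen, were FOS (1.91), JUNB (1.15) and EGR1 (0.94, ending without any 1 GFPsh library or FOSL1sh3 replicate 2). In the direct comparison 4 of the 11, JUN, ATF3, FOSL2 and IRF1, were higher in FOSL1sh10 (7.00% of all genes). The 3 that were lower were FOS, JUNB and EGR1 (5.74% of all genes). The FOSL2 and FOS calls there each ended without 4 of the libraries, left out 1 at a time, and that of FOS also when scaled by library totals alone.

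Of 12 tested factors that destroy or stabilise cytokine RNA, 1 rose with FOSL1sh10, 4 rose with FOSL1sh3, and 2 were lower in FOSL1sh10 than in FOSL1sh3, beside 3.13%, 5.21% and 5.74% of all genes. Beside those shares a single call among 12 is not read as a result about the list, and the 4 became 2 without GFPsh replicate 3. ZC3H12A, the nuclease regnase-1 that cuts IL6 RNA, rose by 0.98 with FOSL1sh10 (SE 0.211, edgeR adjusted p = 0.00925, and 0.0558 without FOSL1sh10 replicate 2) and by 0.96 with FOSL1sh3 (SE 0.212, adjusted p = 0.00868). The other 3 that rose with FOSL1sh3 were ZFP36L2 (0.54, ending without any 1 GFPsh library or FOSL1sh3 replicate 1), MAPKAPK2 (0.73) and KHSRP (0.59, also ending without GFPsh replicate 3). MAPKAPK2 and KHSRP were the 2 that were lower in FOSL1sh10 than in FOSL1sh3 (-0.68 and -0.54, the latter ending with library totals alone and without FOSL1sh3 replicate 3 or FOSL1sh10 replicate 3).

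**Figure D5:**
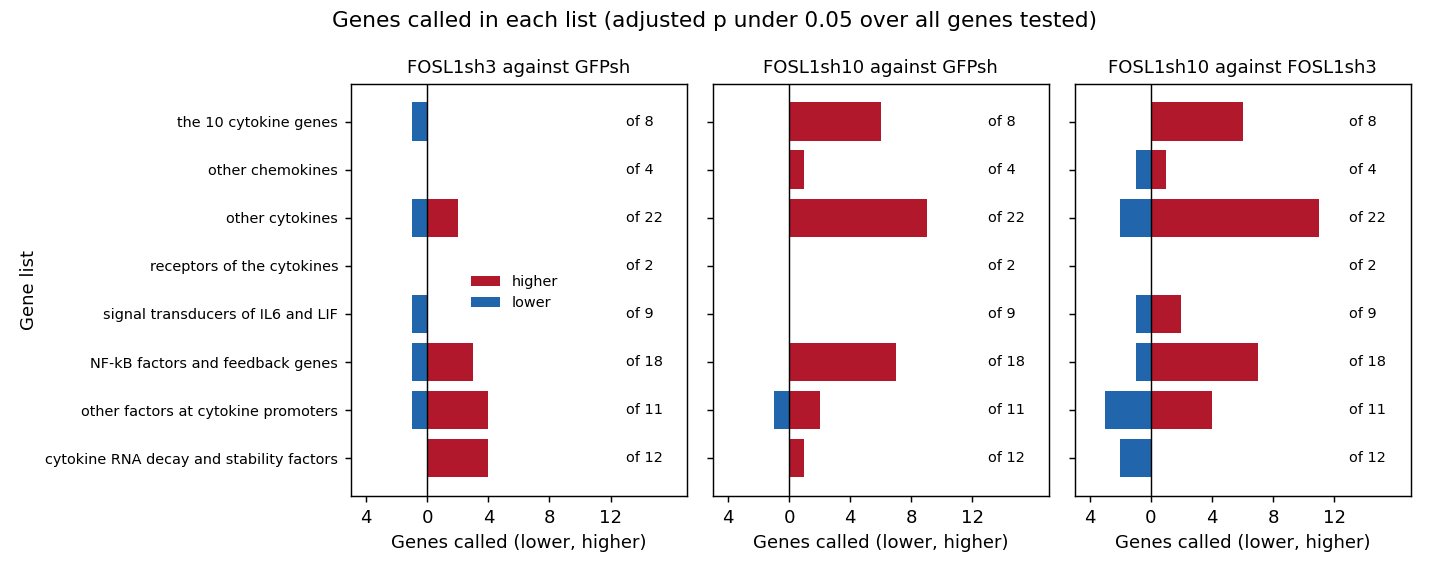
Number of genes called higher (red, right of 0) and lower (blue, left of 0) at an adjusted p under 0.05 in the 10 cytokine genes and in related gene lists, with the number tested at the right, 1 panel per comparison. With FOSL1sh10 against GFPsh, 6 of 8 cytokine genes, 9 of 22 other cytokines and 7 of 18 NF-kB genes were higher, and no receptor was called. Whether genes of the related lists reached the expression filter outside FOSL1sh10 was not checked.

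The genes whose pattern was most like that of IL6 were found by distance over the 9 libraries among 12813 genes, on log2 CPM relative to the GFPsh mean. They were PTX3 (distance 1.19), THBS1-IT1 (1.29), NEURL3 (1.43), CD74 (1.61) and SAA1 (1.73). PTX3, the secreted pattern-recognition protein pentraxin 3, was at 2.13 ± 1.03, 2.74 ± 0.651 and 16.2 ± 3.73 CPM in GFPsh, FOSL1sh3 and FOSL1sh10 (SD, n = 3 each). CD74, a chaperone of class II antigen presentation, was at 30.4 ± 3.11, 28.9 ± 4.31 and 141.9 ± 21.3 CPM. THBS1-IT1 lies within THBS1 and SAA1 has a near-identical copy, so both values are uncertain. The nearest to CXCL8 were SCML1 (1.42), RAET1L (1.58), IL7 (1.63), CLIP4 (1.69) and STEAP4 (1.78). SCML1 was at 13.2 ± 3.26, 4.13 ± 2.16 and 18.8 ± 0.927 CPM in the 3 groups. These genes were selected for their pattern, so no test is given for it.

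Markers of other cell types were low, and their ranges differed between groups. The summed level of 10 leukocyte markers was 3.15 to 5.18 CPM in GFPsh, 6.47 to 7.79 with FOSL1sh3 and 6.13 to 9.37 with FOSL1sh10, with CD3E, MS4A1, CD68 and FCGR3A among those at 0. For 10 fibroblast and endothelial markers it was 2.93 to 4.74, 4.31 to 8.02 and 8.13 to 9.68 CPM, with COL3A1, DCN, LUM and PDGFRB at 0. For 5 hepatocyte markers it was 6.19 to 7.31, 8.08 to 11.6 and 13.8 to 17.6 CPM, with CYP3A4 at 0 and SERPINA1 alone at 5.40 to 17.5 CPM. SERPINA1 was the 1 hepatocyte marker tested, and it rose with FOSL1sh10 against GFPsh (1.27, edgeR adjusted p = 0.00141) and was higher than with FOSL1sh3 (0.71, adjusted p = 0.0323), as were IL6, CSF1, CXCL1, CXCL2 and CXCL3. The second SERPINA1 call ended under 5 of the 16 alternatives. CD14, the 1 leukocyte marker tested, averaged 3.82 CPM in GFPsh, 6.11 with FOSL1sh3 and 7.01 with FOSL1sh10. Both hairpins lay above all controls for CD14, by 0.67 (edgeR adjusted p = 0.131) and 0.89 (0.0716) on the log2 scale. COL1A1, the 1 fibroblast and endothelial marker tested, averaged 3.14, 4.73 and 5.42 CPM, with differences of 0.58 (adjusted p = 0.29) and 0.79 (0.187). The share of counts in ribosomal protein genes was 25.4% ± 0.802 for GFPsh, 27.3% ± 0.204 for FOSL1sh3 and 22.1% ± 1.90 for FOSL1sh10 (SD, n = 3 each). The part of these differences in the cytokine results was not tested.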

How the data were processed

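RNA was measured in 9 libraries of EGI-1 cells, made by a low-input 3' tag protocol (MARS-seq) per the labels. For each library the authors deposited raw read counts by gene, as whole numbers with no normalization. Per the file headers, featureCounts 1.6.0 counted reads over exons with GENCODE release 28, with no option set for strand, multi-mapping reads or duplicates. Per the submitters' processing notes, FastQC 0.11.5 and STAR 2.5.3a were used with hg38, and edgeR and limma were named. The sources used here do not say whether reads were collapsed by molecular identifier.

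Sample titles gave the groups and replicate numbers. Genes passing edgeR's expression filter (count of 10, total of 15) were scaled by TMM and tested by quasi-likelihood F test (edgeR 4.0.16, R 4.3.3), with all 9 libraries in a single fit on group. The common biological coefficient of variation was 16.4%. Each SE was the absolute log2 fold change divided by the square root of F. Library totals ranged from 6893026 to 10604251 counts, and floors cover counting error only. No replicates held identical values or agreed within sampling noise.

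The 10 genes and the 11 other gene lists were chosen with earlier results of these data known. Named were FOSL1, the 10 genes, from each other list up to 4 tested genes with the smallest p for FOSL1sh10 against GFPsh, every receptor, and the 5 genes nearest to IL6 and the 5 nearest to CXCL8. Few further genes are named where a count was small, and some genes of the lists are not reported here. Promoters came from RefSeq (GRCh38.p14), and transcripts, exons and 3' untranslated regions from GENCODE release 29, with the coding transcript of longest 3' untranslated region per gene. Identity was computed from end-to-end alignments with Biopython 1.88. Printed promoter stretches leave out bases that GENCODE annotates as exonic beyond 29 bases around a match. The test was checked on simulated data: in the first simulated draw the share of false calls was above the bound set for it, and after more draws were added the bound was put on the mean over all draws, the first included, which met it. The alternatives were library totals in place of TMM, no low-count filter, a minimum count of 20, robust fitting, a replicate block, a fit of only the groups compared, each library left out in turn, and DESeq2 1.42.0.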

Additional observations from a re-analysis of the deposited data

Results flagged for a closer look

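In the direct test of FOSL1sh10 against FOSL1sh3, 6 of the 8 tested cytokine genes differed between the hairpins (edgeR quasi-likelihood, adjusted p under 0.05), while FOSL1 itself differed by 0.05 (adjusted p = 0.9). Over all genes tested, 7.00% were called higher and 5.74% lower in this comparison. For each of the 6, all 3 FOSL1sh10 libraries lay above all 3 FOSL1sh3 libraries, as they did for 15.9% of all genes. The log2 difference was 2.73 for IL6, 2.546 for CXCL8, 2.248 for CXCL3, 2.197 for CXCL1, 1.87 for CSF1 and 1.574 for CXCL2.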

How the results depend on the processing

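Calls of IL6, CSF1, CXCL1, CXCL2 and CXCL3 for FOSL1sh10 against GFPsh, and of these 5 and CXCL8 against FOSL1sh3, held under all 16 alternatives, as did the fall of FOSL1 with each hairpin. The number of cytokine genes lower with FOSL1sh3 was 1 (CXCL8), 2 with no low-count filter, 2 with the replicate block, which added CXCL1, and 0 to 2 when 1 library was left out. The block changed no other call of the cytokine genes. Same-numbered libraries correlated at -0.116 to 0.183 in their deviations from the group means, and differently numbered ones at -0.165 to 0.156. These ranges overlap, and with 3 libraries per group they cannot settle whether the numbers pair the samples. CXCL8 was also called higher with FOSL1sh10 with no low-count filter (adjusted p = 0.0388, over alternatives 0.0388 to 0.502). LIF was called with FOSL1sh10 in a fit of only the groups compared, and against FOSL1sh3 without FOSL1sh3 replicate 2, both just under the threshold. Directions turned only for differences near 0. CSF1 with FOSL1sh3 was 0.019 with the replicate block and ran from -0.131 to 0.187 when 1 library was left out (0.187 without GFPsh replicate 2, 0.115 without FOSL1sh3 replicate 2). CXCL2 with FOSL1sh3 ran from -0.398 to 0.304 and LIF from -0.055 to 0.251, both lowest without FOSL1sh3 replicate 2. FOSL1 between the hairpins ran from -0.142 (without FOSL1sh3 replicate 3) to 0.167, and was -0.021 without FOSL1sh10 replicate 1. The cause was not tested. Over all genes 1392, 676 and 1633 were called with FOSL1sh3, with FOSL1sh10 and between the hairpins. Leaving out 1 library gave 599 to 1803, 347 to 919 and 712 to 1920, the fit of only the groups compared gave 1124 with FOSL1sh10, and library totals alone raised the genes higher in FOSL1sh10 than in FOSL1sh3 from 897 to 1807. Low counts limit CCL20, CXCL5 and CCL2.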
